A study of Rattus norvegicus with 36 samples.

Results

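MicroRNAs of the aorta differed in level between high and normal salt in S2Bb congenic rats. Their number moved with the scaling and with single libraries. In S2Ba congenic rats such differences depended on both, and no call was left with reads scaled to library totals. The question here is whether the salt response in S2Bb differed from that in S2Ba. The quantity is the difference of salt responses, (S2Bb on high salt minus S2Bb on normal salt) minus (S2Ba on high salt minus S2Ba on normal salt), taken on log2 values. The 4 groups were found by the strain and diet in the sample labels, which give 24 of the 36 samples of the series, and 22 of these libraries were analysed. S2Ba high-salt replicate 2 was not analysed here. The column of S2Ba normal-salt replicate 4 is identical in 100% of its values to a column labelled as the parental strain, so it was left out. That leaves 5 S2Ba libraries on each diet and 6 S2Bb libraries on each diet, and the replicate numbers are names that pair no animals.

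All 4 groups are male rats on the background of the SS strain, the Dahl salt-sensitive rat, and each library is labelled with its own animal. S2Ba carries the distal portion of chromosome 2 from the Brown Norway (BN) rat, and S2Bb carries the middle segment. The normal-salt diet (NSD) or the high-salt diet (HSD, 4% NaCl) was begun at 4 to 6 weeks of age and kept until 12 to 13 weeks, and small RNAs of the thoracic aorta were then sequenced. Both strains hold a BN segment, so the comparison sets 1 segment against the other, with no SS group without a segment in it. Each difference therefore belongs to the pair of strains, and which segment it goes with cannot be told apart.

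MicroRNAs are short RNAs that guide the silencing complex to messenger RNAs, mostly by pairing through the seed, which spans bases 2 to 8 of the mature strand. The vessel wall is mainly smooth muscle, where miR-143 and miR-145 hold the contractile state, miR-221 and miR-222 promote proliferation, and miR-21 and miR-31 act in remodelling after injury. MicroRNAs induced by inflammatory signalling, such as miR-146a and miR-146b, act back on that signalling. A precursor gives a 5p and a 3p arm, and the arm that is less abundant is called the passenger.

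The sequences below belong to 12 microRNAs described at length in the following paragraphs, chosen after their values were seen, and show which of them share a seed and so may share targets. They are mature strands from RefSeq (GRCr8), 5′ to 3′, with the seed in capitals. The pair of miR-221-3p and miR-222-3p, both on the X chromosome, has 1 seed, as has the pair of miR-204-5p and miR-211-5p, both on chromosome 1, while miR-221-5p, miR-26a-5p, miR-145-5p, miR-143-5p, miR-152-5p, miR-126a-5p, miR-138-5p and miR-196b-5p each have another.
miR-221-3p: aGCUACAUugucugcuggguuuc
miR-222-3p: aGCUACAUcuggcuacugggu
miR-221-5p: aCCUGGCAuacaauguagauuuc
miR-204-5p: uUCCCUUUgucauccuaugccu
miR-211-5p: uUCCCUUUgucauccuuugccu
miR-145-5p: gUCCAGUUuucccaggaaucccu
miR-143-5p: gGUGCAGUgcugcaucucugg
miR-152-5p: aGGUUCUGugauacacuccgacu
miR-26a-5p: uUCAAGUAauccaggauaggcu
miR-126a-5p: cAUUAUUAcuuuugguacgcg
miR-138-5p: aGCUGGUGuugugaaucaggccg
miR-196b-5p: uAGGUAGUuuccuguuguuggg
Of these, miR-143-5p and miR-145-5p are encoded on chromosome 18, miR-152-5p on chromosome 10, miR-221-5p on the X chromosome, miR-26a-5p on chromosome 8, miR-126a-5p on chromosome 3, miR-196b-5p on chromosome 4 and miR-138-5p on chromosomes 8 and 19, so none of these entries lies on the chromosome that carries the BN segments. The sources used here do not give how reads of near-identical microRNAs such as miR-204-5p and miR-211-5p were assigned, so their separate levels are uncertain.

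The 22 libraries held 10.8 to 42.4 M reads of listed microRNAs, with a median of 20.9 M. Depth was highest in S2Bb on normal salt, at 27.2 ± 8.52 M reads (SD, n = 6), against 20.1 ± 2.29 M (SD, n = 6) in S2Bb on high salt, 19.4 ± 5.46 M (SD, n = 5) in S2Ba on normal salt and 17.7 ± 4.00 M (SD, n = 5) in S2Ba on high salt. The smooth muscle microRNA miR-143-3p held 42.6% to 60.0% of the normalized signal. Correlations between libraries of 1 group ranged from 0.982 to 0.995 on the log2 scale. A level is given as the deposited normalized signal in normalized reads per M reads (nRPM), and a response as the difference of group means of log2(nRPM + 1), which understates the change of rare microRNAs. In these bulk samples, fewer cells of a type and less RNA per cell cannot be told apart.

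No microRNA passed the test for a difference of salt responses. With limma and Benjamini-Hochberg adjustment over 467 microRNAs, 0 had an adjusted p under 0.05 (0% of those tested), and the smallest adjusted p was 0.308. At an unadjusted p under 0.05 there were 33 (7.07%), of which 14 (3%) had the higher response in S2Bb and 19 (4.07%) the lower. The edgeR quasi-likelihood test on recovered reads also called 0, with 35 at an unadjusted p under 0.05. DESeq2 called 0, with 37 at that limit and a smallest adjusted p of 0.0730. The missing calls do not show that the strains respond alike. The median 95% interval of a difference reached 0.54 to either side on the log2 scale. For 344 of the 467 (73.7%) the interval lay within 1 log2 unit of no difference. That unit is a doubling of nRPM + 1, which is close to a doubling of the level only for abundant microRNAs. Tested means reach down to 0.547 nRPM, and for such rare microRNAs an interval within 1 unit can still hold a doubling of the level.

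Within each strain, salt responses did pass the test. In S2Bb 48 microRNAs changed (10.3% of those tested), 23 upward (4.93%) and 25 downward (5.35%). In S2Ba 17 changed (3.64%), 13 upward (2.78%) and 4 downward (0.857%). At an unadjusted p under 0.05 there were 105 in S2Bb (22.5%, with 9.85% of those tested lower on high salt) and 70 in S2Ba (15%, with 4.71% lower). These counts are not evidence of a difference between strains, and the S2Ba group is smaller by 1 library per diet. The S2Ba count also moved with single libraries, from 2 without S2Ba normal-salt replicate 3 to 31 without S2Ba high-salt replicate 5. The split moved with the scaling as well. With recovered reads scaled to library totals, S2Bb had 19 upward and 10 downward calls and S2Ba 0 calls, with 55 at an unadjusted p under 0.05. With edgeR's TMM factors S2Ba had 5 upward and 5 downward calls, and with DESeq2's factors S2Bb had 16 upward and 27 downward and S2Ba 8 and 5. Every S2Ba call named below was therefore lost under total scaling. Downward S2Bb calls went from 25 to 10, so some of the falls in S2Bb named below were not called there either. The 2 strains share no library in these responses. Of the 48 S2Bb calls 44 had the same sign in S2Ba, and of the 17 S2Ba calls 17 had the same sign in S2Bb, beside 294 of 467 (63.0%) over all microRNAs tested. Called in both strains were 14, which is 29.2% of the S2Bb calls and 82.4% of the S2Ba calls. Across the 467 microRNAs, which are not independent replicates, the responses had a Pearson correlation of 0.48.

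**Figure D1:**
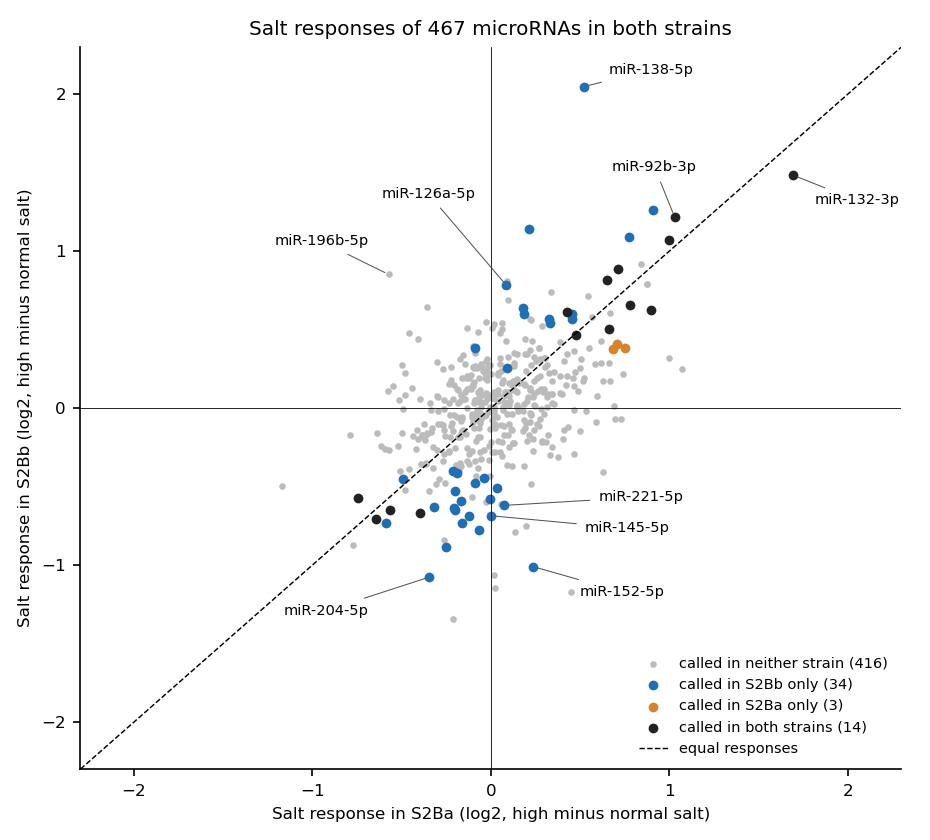
Salt response in S2Ba (horizontal, log2 high minus normal salt) against that in S2Bb (vertical) for 467 microRNAs, coloured by the strain in which the response was called. The 14 microRNAs called in both lie near the dashed line of equal responses, while miR-138-5p and miR-126a-5p lie above it and miR-152-5p, miR-204-5p, miR-221-5p and miR-145-5p below it.

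The microRNAs closest to a difference are described next, 12 in each direction by the smallest unadjusted p among named microRNAs with a mean of at least 10 nRPM. Their order comes from the same test, so their values are a description of the largest separations. Of the 24, 12 had a salt response called in S2Bb and 0 in S2Ba, beside 10.3% and 3.64% of all microRNAs tested. Each difference holds both responses, so these counts are not independent of the choice of the 24. The 2 diets did not overlap in S2Bb for 6 of the 24, and in S2Ba for 2 of the 24. Over all microRNAs tested such separation was found for 4.93% in S2Bb and 2.78% in S2Ba. All of the 24 had an adjusted p for the difference between 0.308 and 0.756, so none of the differences below passed the test.

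**Figure D2:**
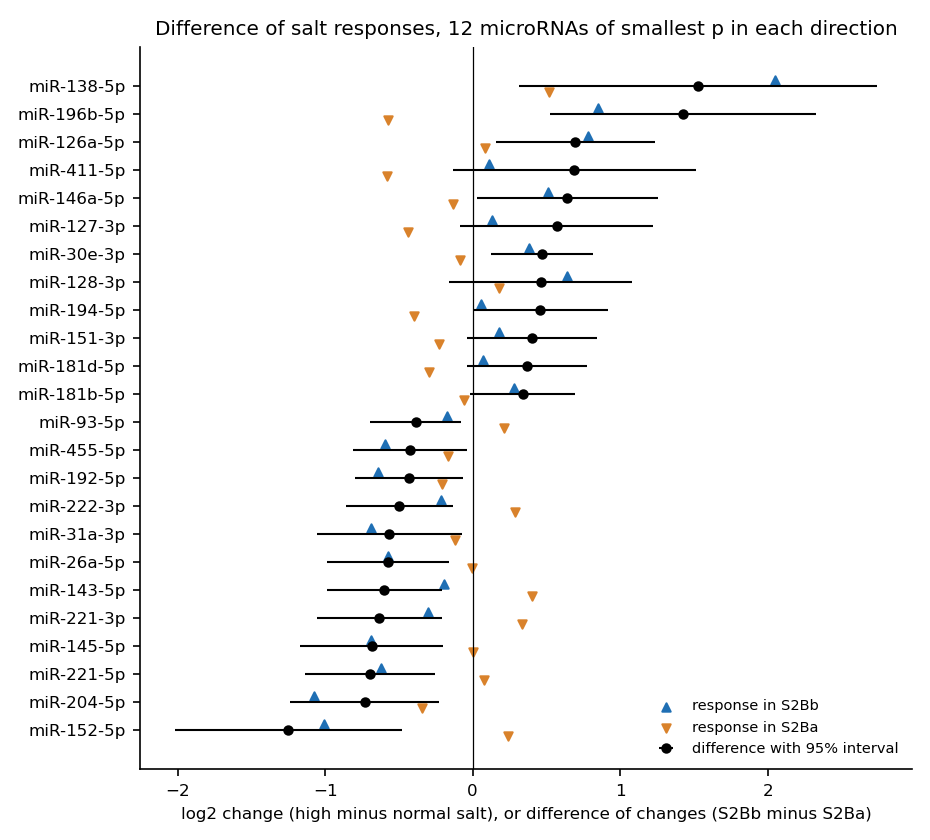
Difference of salt responses (black points, log2, S2Bb minus S2Ba, with 95% limma interval) for the 12 microRNAs of smallest p in each direction, with the response in S2Bb (upward triangles) and in S2Ba (downward triangles). The differences run from -1.25 for miR-152-5p to 1.53 for miR-138-5p, and the interval of 6 of the higher ones reaches zero.

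Among smooth muscle microRNAs, miR-145-5p fell with salt in S2Bb. In S2Bb its lowest, median and highest levels were 3783, 4406 and 5929.9 nRPM on normal salt and 1899, 3016 and 3437 nRPM on high salt. In S2Ba the libraries held 3709, 3249.7, 6071, 5058 and 4299 nRPM on normal salt and 3424, 4516, 4838, 4399 and 4827 nRPM on high salt. The high-salt S2Bb libraries were all below the normal-salt ones, and the S2Ba diets overlapped fully. The response was -0.69 ± 0.16 (SE) in S2Bb (adjusted p = 0.00519, limma) and -0.00057 ± 0.17 (SE) in S2Ba. The difference was -0.69 ± 0.23 (SE) (95% interval -1.17 to -0.20, unadjusted p = 0.00751, adjusted p = 0.308, limma).

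Its neighbour on the same precursor transcript gave another pattern. The passenger arm miR-143-5p had levels of 29.8, 44.8, 38.4, 37.6 and 37.4 nRPM in the S2Ba normal-salt libraries and 56.2, 54.9, 52.3, 43.7 and 42.8 nRPM in the S2Ba high-salt libraries. In S2Bb the lowest, median and highest levels were 55.3, 60.1 and 79.9 nRPM on normal salt and 45.2, 57.8 and 68.1 nRPM on high salt. Normal-salt S2Bb and normal-salt S2Ba did not overlap, while the diets overlapped in both strains. Neither response passed the test, with -0.20 ± 0.13 (SE) in S2Bb and 0.40 ± 0.14 (SE) in S2Ba, and their difference was -0.60 ± 0.19 (SE) (unadjusted p = 0.00419, adjusted p = 0.308, limma). The other arms gave smaller differences, -0.19 ± 0.21 (SE) for miR-143-3p and -0.073 ± 0.24 (SE) for miR-145-3p. All 4 smooth muscle microRNAs had a negative difference, with a median of -0.39 beside -0.0045 over all tested, of which 236 of 467 were negative. At an unadjusted p under 0.05 there were 2 of the 4, both lower in S2Bb, beside 4.07% lower over all.

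Of 7 microRNAs of smooth muscle growth tested, 6 had a negative difference, with a list median of -0.50, beside 236 of 467 negative over all. At an unadjusted p under 0.05 there were 4 of the 7, each lower in S2Bb, beside 4.07% lower over all. These were both arms of miR-221, miR-222-3p, also on the X chromosome, and miR-31a-3p, so they are not 4 independent observations. For miR-221-5p, the S2Ba libraries held 13.4, 19.9, 10.7, 17.3 and 11.6 nRPM on normal salt and 14.2, 13.3, 16.3, 15.4 and 16.1 nRPM on high salt. The S2Bb levels had a lowest, median and highest value of 21.1, 26.3 and 33.9 nRPM on normal salt and 14.2, 16.2 and 19.96 nRPM on high salt. Normal-salt S2Bb stood above the other 3 groups with no overlap. In S2Bb miR-221-5p fell by 0.62 ± 0.14 (SE) (adjusted p = 0.00547, limma), S2Ba had a response of 0.075 ± 0.16 (SE), and the difference was -0.70 ± 0.21 (SE) (95% interval -1.14 to -0.25).

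The opposite arm miR-221-3p, which represses the cell cycle inhibitor p27, was measured at 134, 119, 147, 113 and 118 nRPM in S2Ba on normal salt and 136, 199.7, 179, 127 and 163 nRPM in S2Ba on high salt. S2Bb ranged from a lowest to a median and a highest level of 156, 181 and 269 nRPM on normal salt and 128, 152 and 189 nRPM on high salt. The diets overlapped in both strains, with the S2Bb mean lower and the S2Ba mean higher on high salt. Its responses of -0.30 ± 0.14 (SE) in S2Bb and 0.33 ± 0.15 (SE) in S2Ba did not pass the test, and the difference was -0.63 ± 0.20 (SE). Its seed partner miR-222-3p gave a difference of -0.50 ± 0.18 (SE) from responses of -0.21 ± 0.12 (SE) in S2Bb and 0.29 ± 0.13 (SE) in S2Ba, so both microRNAs of the printed seed pair had opposite signs in the 2 strains.

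Of the miR-31a arms, miR-31a-3p levels were 11.9 to 18.7 nRPM on normal salt and 6.34 to 10.5 nRPM on high salt in S2Bb, without overlap, and 6.79 to 14.3 and 8.13 to 9.37 nRPM in S2Ba. It fell in S2Bb by 0.69 ± 0.16 (SE) (adjusted p = 0.00547, limma), and the difference was -0.56 ± 0.24 (SE). The arm miR-31a-5p fell in S2Bb by 0.40 ± 0.11 (SE) (adjusted p = 0.0264, limma) beside -0.21 ± 0.12 (SE) in S2Ba, with a difference of -0.19 ± 0.17 (SE). The remaining arms are those of miR-21, a microRNA that rises in injured arteries. The arm miR-21-5p was called in S2Ba, where it rose by 0.71 ± 0.19 (SE) (adjusted p = 0.0447, limma), with 0.41 ± 0.18 (SE) in S2Bb. The arm miR-21-3p was called in S2Bb, where it rose by 1.26 ± 0.38 (SE) (adjusted p = 0.0364, limma), with 0.91 ± 0.42 (SE) in S2Ba. Their differences were -0.30 ± 0.26 (SE) and 0.35 ± 0.56 (SE). For miR-21-3p the S2Bb median was 12.4 nRPM on normal salt and 19.5 nRPM on high salt. The highest high-salt S2Bb library held 102 nRPM. The S2Ba medians were 17.97 nRPM on normal salt and 46.99 nRPM on high salt. With 1 library left out at a time, the miR-21-3p difference ranged from -0.035 to 0.53, so its sign depended on single libraries.

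**Figure D3:**
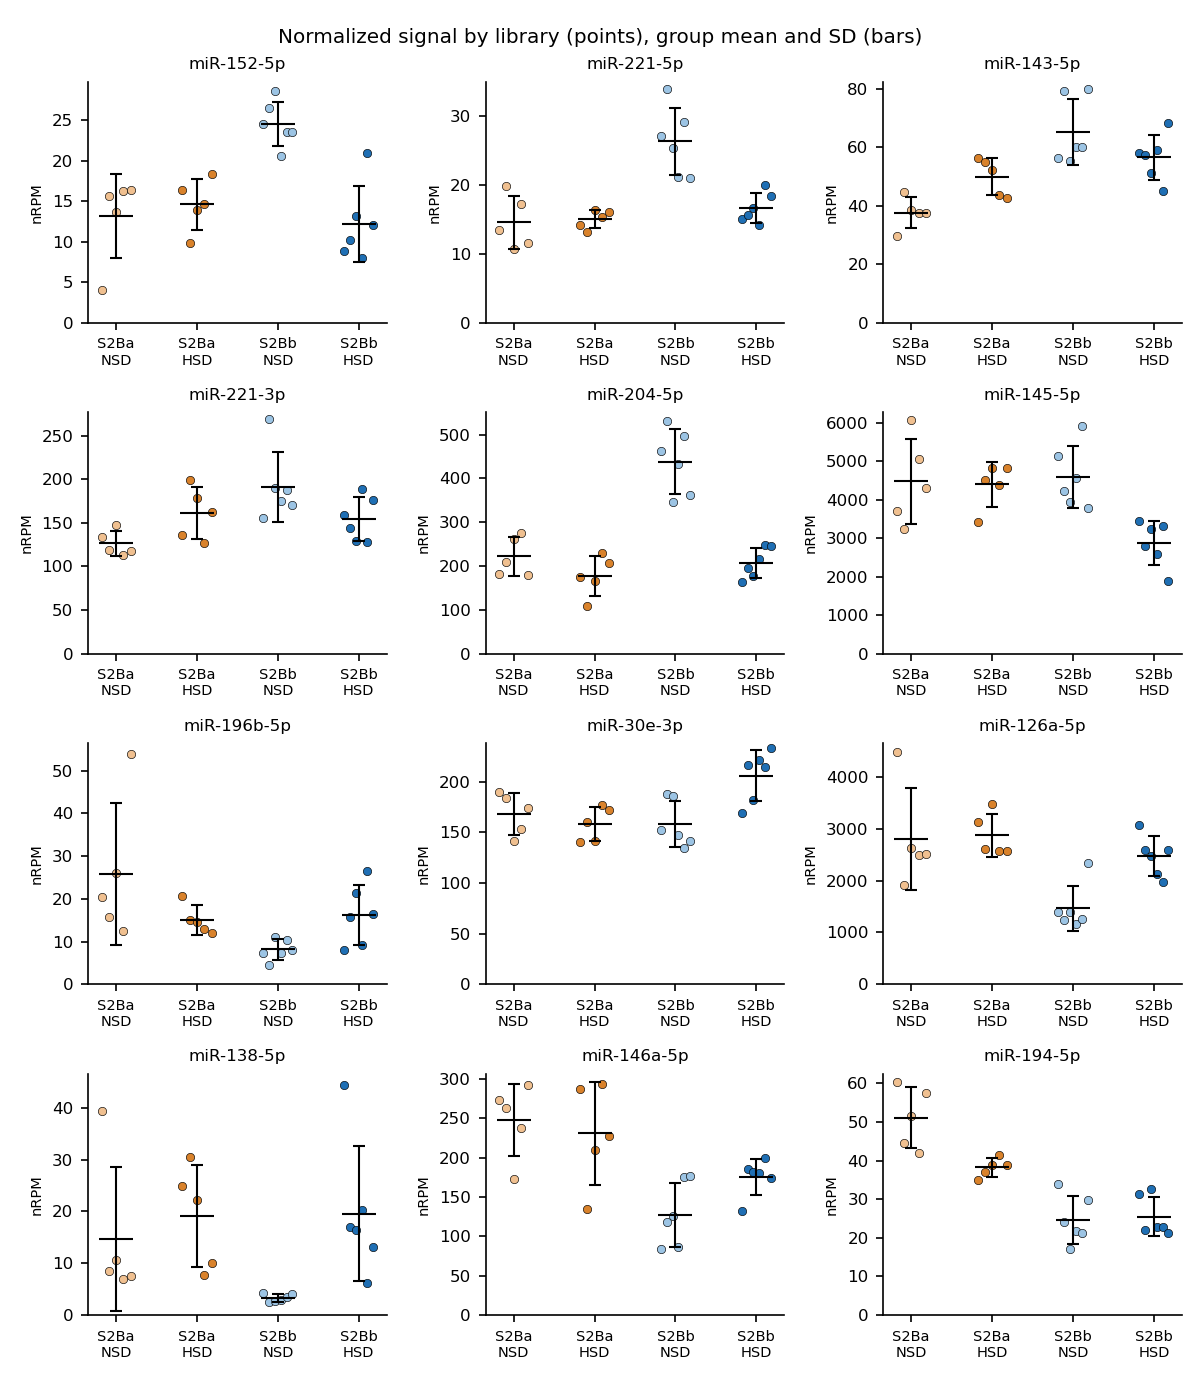
Normalized signal (nRPM, linear axes from 0) of 12 microRNAs in each of the 22 libraries, with group mean and SD, 6 with a lower and 6 with a higher response in S2Bb. Normal-salt S2Bb does not overlap the other groups for miR-221-5p, miR-204-5p and miR-138-5p and overlaps 1 high-salt S2Bb library for miR-152-5p, and high-salt S2Bb is the low group for miR-145-5p and the high one for miR-30e-3p.

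The seed pair miR-204-5p and miR-211-5p fell with salt in S2Bb. miR-204-5p, which represses the bone and smooth muscle regulator Runx2, was measured at 182, 209, 262, 275 and 180.0 nRPM in S2Ba on normal salt and 174, 109, 166, 229 and 206 nRPM in S2Ba on high salt. S2Bb gave a lowest, median and highest level of 346, 448 and 530.2 nRPM on normal salt and 164, 205 and 248 nRPM on high salt. Normal-salt S2Bb lay above every other library, and high-salt S2Bb lay within the S2Ba range. The response was -1.08 ± 0.16 (SE) in S2Bb (adjusted p = 0.000180, limma) and -0.35 ± 0.18 (SE) in S2Ba. Their difference was -0.73 ± 0.24 (SE) (95% interval -1.24 to -0.23, unadjusted p = 0.00646, adjusted p = 0.308, limma).

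The rarer miR-211-5p, whose mature strand is nearly the same, had levels of 1.90 to 2.51 nRPM on normal salt and 0.577 to 1.64 nRPM on high salt in S2Bb. In S2Ba the ranges were 0.799 to 1.40 and 0.476 to 1.26 nRPM. It fell in S2Bb by 0.73 ± 0.14 (SE) (adjusted p = 0.00120, limma), had a response of -0.16 ± 0.15 (SE) in S2Ba, and differed by -0.57 ± 0.20 (SE). At these levels the added 1 nRPM of the log2 scale shrinks the response.

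The largest negative difference among the 24 was that of miR-152-5p, the passenger arm of miR-152 of the miR-148 family. S2Bb gave a lowest, median and highest level of 20.7, 24.1 and 28.6 nRPM on normal salt and 7.99, 11.2 and 20.98 nRPM on high salt. S2Ba libraries held 4.09, 15.7, 13.7, 16.3 and 16.4 nRPM on normal salt and 16.4, 9.81, 13.9, 14.7 and 18.3 nRPM on high salt. The S2Bb diets overlapped through 1 high-salt library, and normal-salt S2Bb lay above every S2Ba library. miR-152-5p fell in S2Bb by 1.01 ± 0.25 (SE) (adjusted p = 0.00906, limma), the response in S2Ba was 0.24 ± 0.27 (SE), and the difference was -1.25 ± 0.37 (SE) (95% interval -2.02 to -0.48, unadjusted p = 0.00265, adjusted p = 0.308, limma). Without S2Ba normal-salt replicate 1, whose level of 4.09 nRPM lay far below its group, the difference was -0.91.

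Other abundant microRNAs with a lower response in S2Bb included miR-26a-5p, which acts on SMAD1 in vascular smooth muscle. Its S2Bb levels had a lowest, median and highest value of 38959, 55286 and 65562 nRPM on normal salt and 29040.5, 32909 and 47709 nRPM on high salt. In S2Ba the normal-salt libraries held 37823, 50844, 53395, 41986 and 45373 nRPM and the high-salt libraries 53876, 47516, 39078, 43295 and 44366 nRPM. The high-salt S2Bb group was the low one, with overlap. miR-26a-5p fell in S2Bb by 0.58 ± 0.13 (SE) (adjusted p = 0.00547, limma) with -0.0051 ± 0.15 (SE) in S2Ba, and the difference was -0.57 ± 0.20 (SE). Its seed partner miR-26b-5p had a difference of -0.12 ± 0.14 (SE).

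In the family of the miR-17-92 cluster and its paralogs, which promotes proliferation, 8 of 9 tested members had a negative difference, with a median of -0.26, beside 236 of 467 negative over all. At an unadjusted p under 0.05 there were 2 of the 9, beside 4.07% lower over all. Both were lower in S2Bb and belong to the paralog cluster in the Mcm7 gene. miR-93-5p differed by -0.39 ± 0.15 (SE), from -0.17 ± 0.10 (SE) in S2Bb and 0.21 ± 0.11 (SE) in S2Ba, neither called, and its S2Ba diets did not overlap, at 78.1 to 90.4 nRPM on normal salt and 90.7 to 104 nRPM on high salt. The rarer miR-106b-3p fell in S2Bb by 0.51 ± 0.12 (SE) (adjusted p = 0.00656, limma) with 0.035 ± 0.13 (SE) in S2Ba, a difference of -0.55 ± 0.18 (SE). The third member of that cluster, miR-25-3p, had a difference of -0.011 ± 0.13 (SE). By contrast miR-17-5p rose in both strains, and miR-92a-3p rose in S2Bb by 0.60 ± 0.18 (SE) (adjusted p = 0.0364, limma) beside 0.45 ± 0.20 (SE) in S2Ba.

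The last 2 of the 12 lower microRNAs were called in S2Bb. miR-192-5p, abundant in liver, kidney and gut, had S2Bb levels with a lowest, median and highest value of 472, 605 and 643 nRPM on normal salt and 314, 366 and 487 nRPM on high salt. It fell by 0.64 ± 0.12 (SE) (adjusted p = 0.00120, limma) beside -0.21 ± 0.13 (SE) in S2Ba, and the difference was -0.43 ± 0.18 (SE). The entry miR-n178 follows it to within 2.65% in every library, so the pair cannot be told apart as separate measurements. miR-455-5p, encoded in the collagen gene Col27a1, fell in S2Bb by 0.59 ± 0.13 (SE) (adjusted p = 0.00325, limma) without overlap of the diets, and differed by -0.42 ± 0.19 (SE). The other arm miR-455-3p also fell in S2Bb, by 0.63 ± 0.17 (SE) (adjusted p = 0.0154, limma), with a difference of -0.31 ± 0.25 (SE). Outside the naming rule for its mean level of 9.32 nRPM, and singled out after its values were seen, miR-345-5p had the smallest unadjusted p of all, 0.00195. It fell in S2Bb by 0.78 ± 0.14 (SE), with -0.07 ± 0.15 (SE) in S2Ba, and the S2Bb diets did not overlap.

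On the higher side, miR-138-5p, a microRNA of neurons, had the largest difference of the 24. In S2Bb its lowest, median and highest levels were 2.51, 3.26 and 4.23 nRPM on normal salt and 6.22, 16.7 and 44.4 nRPM on high salt. S2Ba libraries held 39.3, 8.56, 10.6, 6.998 and 7.46 nRPM on normal salt and 24.8, 30.6, 22.2, 7.75 and 10.1 nRPM on high salt. Every normal-salt S2Bb library was below every other library, and the other 3 groups overlapped. It rose in S2Bb by 2.05 ± 0.40 (SE) (adjusted p = 0.00136, limma), the response in S2Ba was 0.52 ± 0.43 (SE), and the difference was 1.53 ± 0.59 (SE) (95% interval 0.32 to 2.74, unadjusted p = 0.0157, adjusted p = 0.406, limma). Without S2Ba normal-salt replicate 1, whose level of 39.3 nRPM lay far above its group, the difference was 1.10. Another brain microRNA, miR-128-3p, rose in S2Bb by 0.64 ± 0.20 (SE) (adjusted p = 0.0447, limma) with 0.18 ± 0.22 (SE) in S2Ba, and its difference was 0.46 ± 0.30 (SE). Of 6 tested neuronal microRNAs 4 had a positive difference, with a median of 0.33, beside 231 of 467 positive over all, and miR-218a-5p leaned the other way, called in S2Ba at 0.68 ± 0.18 (SE) with 0.37 ± 0.17 (SE) in S2Bb. The summed level of the neuronal list, 9 of 10 of which are in the table, was 116 to 191 nRPM in S2Bb on normal salt and 161 to 279.6 on high salt, and 119 to 209 and 151 to 268 nRPM in S2Ba. Its part in the miR-138-5p result was not tested.

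miR-196b-5p, a microRNA of the Hoxa gene cluster, had the second largest difference among the 24. S2Bb gave a lowest, median and highest level of 4.63, 7.70 and 11.2 nRPM on normal salt and 8.001, 16.1 and 26.6 nRPM on high salt. The S2Ba libraries held 20.4, 15.7, 26.1, 12.4 and 54.03 nRPM on normal salt and 20.7, 15.1, 14.7, 12.8 and 12.00 nRPM on high salt. Normal-salt S2Bb lay below all S2Ba libraries, and the diets overlapped in both strains. Neither response passed the test, 0.85 ± 0.29 (SE) in S2Bb (adjusted p = 0.0639, limma) and -0.57 ± 0.32 (SE) in S2Ba, and the difference was 1.42 ± 0.44 (SE) (95% interval 0.52 to 2.32). The normal-salt S2Ba library at 54.03 nRPM lay above the 12.4 to 26.1 nRPM of its group. With 1 library left out at a time, the miR-196b-5p difference ranged from 1.12 to 1.63. Of the far more abundant Hox cluster microRNAs, miR-10a-5p fell in S2Bb by 0.48 ± 0.13 (SE) (adjusted p = 0.0242, limma) and differed by -0.39 ± 0.20 (SE). miR-10b-5p differed by 0.34 ± 0.28 (SE) with no call, and that value was 0.19 without S2Bb high-salt replicate 5 and 0.53 without S2Bb high-salt replicate 1.

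The endothelial microRNA miR-126a-5p rose with salt in S2Bb. Its S2Bb levels had a lowest, median and highest value of 1162, 1326 and 2335 nRPM on normal salt and 1965, 2537 and 3068 nRPM on high salt. In S2Ba the levels were 4484, 1919.9, 2622, 2489.8 and 2511 nRPM on normal salt and 3140.2, 2619, 3486, 2573 and 2578 nRPM on high salt. Normal-salt S2Bb was low except for 1 library that reached the high-salt range. The response was 0.78 ± 0.17 (SE) in S2Bb (adjusted p = 0.00426, limma) and 0.086 ± 0.19 (SE) in S2Ba, with a difference of 0.70 ± 0.26 (SE) (95% interval 0.16 to 1.23, unadjusted p = 0.0132, adjusted p = 0.363, limma). Without S2Ba normal-salt replicate 1, whose level of 4484 nRPM lay far above its group, the difference was 0.51. The other arm of the same precursor, miR-126a-3p, differed by -0.21 ± 0.25 (SE), opposite in sign, from -0.10 ± 0.17 (SE) in S2Bb and 0.10 ± 0.18 (SE) in S2Ba.

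Among microRNAs of inflammatory signalling, miR-146a-5p and miR-146b-5p share a seed and are induced by NF-kB. miR-146a-5p was measured at 273, 264, 173, 237 and 293 nRPM in S2Ba on normal salt and 288, 134, 210.2, 294 and 228 nRPM in S2Ba on high salt. S2Bb gave a lowest, median and highest level of 83.5, 122 and 176 nRPM on normal salt and 133, 181 and 199 nRPM on high salt. The diets overlapped in both strains, neither response was called, and the difference was 0.64 ± 0.30 (SE) (95% interval 0.03 to 1.25). By contrast miR-146b-5p rose in both strains, by 0.88 ± 0.18 (SE) in S2Bb (adjusted p = 0.00215, limma) and 0.71 ± 0.20 (SE) in S2Ba (adjusted p = 0.0447, limma), with a difference of 0.17 ± 0.27 (SE). miR-181b-5p, which acts on NF-kB transport in endothelium, and miR-181d-5p of the same seed differed by 0.34 ± 0.17 (SE) and 0.37 ± 0.20 (SE), from uncalled responses. Of the 8 members tested 6 had a positive difference, with a median of 0.13, beside 231 of 467 positive over all, and 1 had an unadjusted p under 0.05, beside 7.07% over all.

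The remaining higher microRNAs had differences of 0.40 to 0.69. miR-30e-3p rose in S2Bb by 0.38 ± 0.11 (SE) (adjusted p = 0.0323, limma), with -0.088 ± 0.12 (SE) in S2Ba, and its levels were 135 to 188 nRPM on normal salt and 169 to 233 nRPM on high salt in S2Bb, and 141 to 189.7 and 141 to 177 nRPM in S2Ba. The difference was 0.47 ± 0.17 (SE) (95% interval 0.12 to 0.82, unadjusted p = 0.00988, adjusted p = 0.308, limma), the only one of 11 miR-30 family members tested with an unadjusted p under 0.05, and miR-30e-5p from the same precursor differed by -0.25 ± 0.14 (SE). miR-194-5p, which is often cotranscribed with miR-192, differed by 0.46 ± 0.22 (SE), opposite in sign to miR-192-5p. Its S2Ba diets did not overlap, with 42.1 to 60.3 nRPM on normal salt and 34.9 to 41.5 nRPM on high salt, and 17.01 to 33.9 and 21.2 to 32.8 nRPM in S2Bb. miR-127-3p and miR-411-5p of the imprinted Dlk1-Dio3 cluster differed by 0.57 ± 0.32 (SE) and 0.69 ± 0.40 (SE), with S2Ba responses of -0.44 ± 0.23 (SE) and -0.58 ± 0.29 (SE) and S2Bb responses of 0.13 ± 0.21 (SE) and 0.11 ± 0.27 (SE). Without S2Bb normal-salt replicate 2 their differences were 0.36 and 0.46. In that cluster 10 of 13 tested members had a positive difference, with a median of 0.20, beside 231 of 467 positive over all, and 0 had an unadjusted p under 0.05. The last, miR-151-3p, differed by 0.40 ± 0.21 (SE). Among the unnamed entries, miR-n88 had the smallest p on the higher side, with a difference of 1.00 ± 0.33 (SE) at a mean of 2.08 nRPM.

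The difference of responses equals the strain gap on high salt minus that on normal salt, and the levels show on which diet the strains were apart. Counted after the values had been seen, the gap between S2Bb and S2Ba was wider on normal salt for 29 of the 33 microRNAs with an unadjusted p under 0.05 (87.9%), beside 257 of 467 over all tested (55.0%). For those 33 the median absolute gap was 0.50 on normal salt and 0.21 on high salt, and for all tested 0.22 and 0.19. The 33 were chosen on the same group means, so this is a description, and it does not show which strain stood apart. Normal-salt S2Bb was separate from every other library for miR-221-5p, miR-204-5p, miR-211-5p and miR-138-5p. The same held for miR-210-3p, which was called in both strains, so this separation was not particular to the microRNAs closest to a difference. In S2Bb no run of neighbouring animal numbers held both diets, so animal number and diet cannot be fully told apart there. Normal-salt S2Ba was the low group by its mean for miR-143-5p and the high one for miR-194-5p, and high-salt S2Bb was the low group for miR-145-5p and miR-26a-5p and the high one for miR-30e-3p. Normal-salt S2Bb also had the greatest depth and the highest total normalized signal, 1.09 ± 0.0944 M (SD, n = 6) against 0.962 ± 0.110 M (SD, n = 5) in normal-salt S2Ba. With reads thinned to 1 depth the differences were -0.77 for miR-221-5p, -0.72 for miR-204-5p, -0.56 for miR-211-5p and 1.61 for miR-138-5p, and with reads scaled to library totals they were -0.57, -0.60, -0.48 and 1.63 in the same order.

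Against this stand the microRNAs that changed in both strains. The CREB-induced miR-132-3p and both arms of miR-212 rose in both. The level of miR-132-3p was 3.29, 2.11, 1.99, 1.05 and 3.25 nRPM in S2Ba on normal salt and 9.49, 22.3, 15.1, 3.82 and 5.51 nRPM on high salt. S2Bb gave a lowest, median and highest level of 0.637, 1.13 and 2.11 nRPM on normal salt and 1.85, 4.94 and 9.57 nRPM on high salt. High-salt libraries were higher in both strains, with overlap in S2Bb. It rose by 1.48 ± 0.34 (SE) in S2Bb (adjusted p = 0.00519, limma) and 1.70 ± 0.37 (SE) in S2Ba (adjusted p = 0.0220, limma), and the difference was -0.21 ± 0.50 (SE) (95% interval -1.26 to 0.83). The interval is wide, so a difference of a doubling toward S2Ba lies within it. At these levels the added 1 nRPM shrinks differences, so the upper limit of 0.83 does not exclude a doubling toward S2Bb either.

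Others in both strains were the arms of miR-30d, miR-27a-3p, miR-92b-3p and miR-17-5p, which rose, and the hypoxia-induced miR-210-3p, which fell. miR-27a-3p had the closest responses, 0.46 ± 0.10 (SE) in S2Bb and 0.48 ± 0.11 (SE) in S2Ba, and a difference of -0.015 ± 0.15 (SE) with a narrow interval of -0.33 to 0.30. miR-30d-5p rose by 0.61 ± 0.11 (SE) in S2Bb and 0.43 ± 0.12 (SE) in S2Ba, and miR-30d-3p by 0.82 ± 0.16 (SE) and 0.65 ± 0.17 (SE). The levels of miR-210-3p were 27.3 to 34.98 nRPM on normal salt and 16.8 to 21.4 nRPM on high salt in S2Bb, and 17.9 to 20.1 and 12.7 to 16.9 nRPM in S2Ba, with no overlap of diets in either. It fell by 0.67 ± 0.10 (SE) in S2Bb (adjusted p = 0.000180, limma) and 0.40 ± 0.11 (SE) in S2Ba (adjusted p = 0.0447, limma), with a difference of -0.27 ± 0.15 (SE). The unnamed miR-n156 rose and miR-n253, miR-n260 and miR-n266 fell in both, with differences of -0.27 ± 0.23 (SE), 0.17 ± 0.26 (SE), -0.083 ± 0.22 (SE) and -0.066 ± 0.23 (SE).

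Calls made in S2Bb that have not been named above had S2Ba responses of the same sign. miR-30b-3p rose in S2Bb by 1.09 ± 0.23 (SE) beside 0.77 ± 0.25 (SE) in S2Ba, and miR-27b-3p by 0.26 ± 0.08 (SE) beside 0.089 ± 0.088 (SE). The striated muscle microRNA miR-133b-3p fell in S2Bb by 0.89 ± 0.20 (SE) (adjusted p = 0.00426, limma) beside -0.25 ± 0.21 (SE) in S2Ba, a difference of -0.64 ± 0.29 (SE), and miR-339-5p fell by 0.41 ± 0.12 (SE) beside -0.19 ± 0.13 (SE). The nearly identical and more abundant miR-133a-3p differed by -0.16 ± 0.15 (SE).

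MicroRNAs encoded on chromosome 2 itself, where the 2 strains differ, gave no call for the difference. Of 27 listed with every precursor on chromosome 2, 16 are in the table and 7 passed the filter on low values. Among the 7, 0 had an unadjusted p under 0.05, and the median difference was -0.15, from -0.37 for miR-449a-5p to 0.23 for miR-15b-5p. The abundant miR-16-5p differed by -0.059 ± 0.18 (SE) and miR-186-5p by -0.29 ± 0.24 (SE). miR-92b-3p rose with salt in both strains, by 1.22 ± 0.19 (SE) in S2Bb and 1.03 ± 0.20 (SE) in S2Ba, and the rare miR-449a-5p was called in S2Ba.

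**Figure D4:**
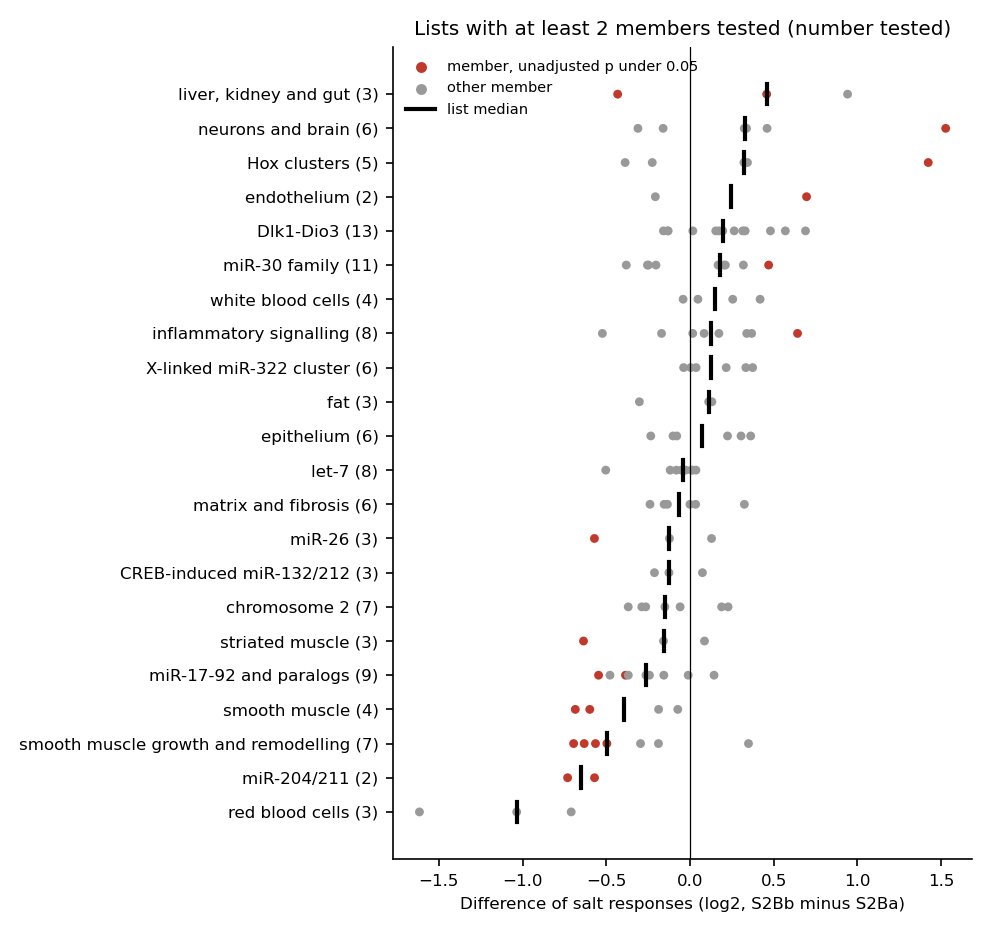
Difference of salt responses (log2, S2Bb minus S2Ba) of each tested member of the lists with at least 2 members, with list medians as bars and members with an unadjusted p under 0.05 in red. Medians run from -1.04 for the 3 red blood cell microRNAs to 0.46 for the 3 liver, kidney and gut microRNAs, and members of most lists lie on both sides of zero.

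Marker microRNAs of other cell types were measured beside these results. The red blood cell microRNA miR-451-5p had levels of 29.1, 9.87, 31.2, 3.48 and 2.77 nRPM in S2Ba on normal salt and 7.72, 75.01, 17.1, 8.06 and 6.72 nRPM on high salt. S2Bb gave a lowest, median and highest level of 5.07, 6.45 and 59.3 nRPM on normal salt and 1.96, 2.90 and 11.4 nRPM on high salt. Levels differed widely between libraries of 1 group, with 1 library far above the others in high-salt S2Ba and 1 in normal-salt S2Bb, and the difference of -1.62 ± 0.94 (SE) did not pass the test. The 3 red blood cell microRNAs in the table, of 4 listed, summed to 2.61 to 14.7 nRPM in high-salt S2Bb and to 3.63 to 92.0 nRPM in the other libraries. White blood cell markers, 6 of 6 in the table, summed to 129 to 196 nRPM in S2Ba on normal salt and 129 to 207 on high salt, and to 107 to 146 nRPM on both diets in S2Bb, with a median difference of 0.15 over the 4 tested. Striated muscle markers, 8 of 8 in the table, summed to 454 to 522 nRPM in S2Ba on normal salt and 446 to 758 on high salt, and to 584 to 713 and 582 to 672 nRPM in S2Bb, so the strains did not overlap on normal salt. The endothelial sum followed miR-126a-5p, at 1429 to 2691 nRPM in S2Bb on normal salt and 2237 to 3259 on high salt, and 2099 to 4767 and 2784 to 3790.3 nRPM in S2Ba. The part of these markers in the differences was not tested.

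The let-7 family and the matrix microRNAs had medians near that of all microRNAs tested. Of 8 let-7 family members tested the median difference was -0.04, with 0 at an unadjusted p under 0.05. They ran from -0.50 ± 0.30 (SE) for miR-98-5p, named after its value was seen, to 0.035 ± 0.15 (SE) for let-7f-5p, and the abundant let-7c-5p differed by -0.027 ± 0.16 (SE). Of 6 matrix and fibrosis microRNAs the median was -0.07, over a range of -0.24 to 0.32, and miR-199a-3p and miR-199a-5p differed by -0.15 ± 0.14 (SE) and -0.14 ± 0.15 (SE). On the X chromosome, the miR-322 cluster gave a median of 0.13 over 6 tested, epithelial microRNAs 0.07 over 6 and fat microRNAs 0.11 over 3, with 0 members at an unadjusted p under 0.05 in each.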

How the data were processed

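Small RNAs of 22 rat aorta libraries were compared. The deposited table holds normalized signal per microRNA and library in normalized reads per M reads (nRPM), made by the authors; the normalization, genome build and annotation are not stated in the labels or header. Per the submitters' processing notes, edgeR 3.6.8 under R 3.2.3 was used, along with the aligner STAR 2.3.1, FastQC and the base-call converter bcl2fastq 1.8.4, in roles and an order that are not stated. Of 835 entries, 576 carry miRBase-style names and 259 are numbered miR-n names that the sources used here do not define.

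From the deposited signal, the 467 microRNAs that reached 1 nRPM in 5 or more of the 22 libraries entered the test, on log2(nRPM + 1), with limma 3.58.1 (intensity trend, group means of the 4 groups) in R 4.3.3. P-values were adjusted by Benjamini-Hochberg over all 467, with calls at an adjusted p under 0.05. P-values measure the spread between animals as labelled. Whole reads were recovered from the signal for 100% of values (tolerance 1e-06), which gave depths of 10.8 to 42.4 M reads and served as alternatives in edgeR 4.0.16 and DESeq2 1.42.0. The depth limits rare microRNAs: 3 reads correspond to 0.0769 to 0.219 nRPM. The scripts were tested on simulated data.

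Named in the text are the 12 microRNAs of smallest p in each direction with a miRBase-style name and a mean of at least 10 nRPM, the 2 most abundant members of each list and those with an unadjusted p under 0.05, the miR-n name of smallest p in each direction, the 5 most abundant and the microRNAs called for salt with a mean of at least 10 nRPM. Members, lists and rules were chosen with earlier results of these data known. Alternatives were the pseudocount, filter, scaling, test, depth, the samples fitted and leaving out each library. Of the 270 tested microRNAs with miRBase-style names, 243 were matched to RefSeq (GRCr8), which also gave the chromosomes. The column identical to a parental-strain column was left out.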

Additional observations from a re-analysis of the deposited data

Results flagged for a closer look

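Among 108 groups of libraries checked, 10 held a library far from the others of its group, where the rule allows about 1 in 20 by chance. Of the 10, 7 were high libraries on the linear scale, and some libraries recur. The count is therefore a description and not a test against chance. S2Ba normal-salt replicate 1 was low for miR-152-5p, at 4.09 nRPM beside 13.7 to 16.4, and high for miR-126a-5p, at 4484 nRPM beside 1919.9 to 2622, and for miR-138-5p, at 39.3 nRPM beside 6.998 to 10.6. That library also had the lowest depth of the 22, 10.8 M reads, and the lowest share of miR-143-3p, 42.6%. S2Bb normal-salt replicate 2 was high for miR-221-3p, at 269 nRPM, and low for miR-127-3p, at 104 nRPM. For miR-31a-3p the high libraries were S2Ba high-salt replicate 5, at 9.37 nRPM, and S2Bb normal-salt replicate 5, at 18.7 nRPM. S2Bb normal-salt replicate 6 was high for miR-126a-5p, at 2335 nRPM. On high salt, S2Bb replicate 1 was high for miR-138-5p, at 44.4 nRPM, and S2Bb replicate 5 low for miR-181b-5p, at 1141 nRPM.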

How the results depend on the processing

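The difference of salt responses had 0 calls in every one of 40 alternatives, with 20 to 50 microRNAs at an unadjusted p under 0.05 and smallest adjusted p-values from 0.0730 with DESeq2 to 0.782 with all 6 groups in 1 fit. Over the 75 microRNAs taken by the naming rules and those alternatives, 2902 of 2989 differences kept their sign, and 58 of the 75 never reversed. All 24 microRNAs of smallest p kept theirs, and 6 of them (miR-152-5p, miR-221-5p, miR-204-5p, miR-145-5p, miR-30e-3p and miR-138-5p) had an unadjusted p under 0.05 throughout. Scaling to total reads moved the median difference over all microRNAs from -0.0045 to 0.10, and differences under that scaling are to be read relative to this shift. The cause of the reversals and of the moved counts was not tested.

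S2Bb had 48 calls, 29 with all 6 groups in 1 fit, 29 with total-read scaling, and 34 to 58 without 1 library. S2Ba had 17 calls. Its count was 7 with no filter, 10 with a mean of at least 10 nRPM, 4 with all 6 groups, 0 with total-read scaling, 10 with TMM factors, 11 with edgeR, 5 with reads thinned to 10.8 M, 5 without both S2Bb high-salt replicates 2 and 3, whose animal numbers are the lowest, and 5 with neighbouring animal numbers fitted as random blocks. Without 1 library the S2Ba count ranged from 2 (without S2Ba normal-salt replicate 3 or 5, or S2Ba high-salt replicate 3 or 4) to 31 (without S2Ba high-salt replicate 5, where all 17 calls were kept). It was 5 to 10 without S2Ba normal-salt replicate 2, S2Ba high-salt replicates 1 or 6, S2Bb normal-salt replicates 1, 3 or 4, or S2Bb high-salt replicates 2, 3 or 4. In S2Ba, animal number and diet cannot be told apart. In S2Bb, high-salt animal numbers lay below and above the normal-salt ones, with none between them. No run of neighbouring numbers therefore held both diets in S2Bb, and blocks of such numbers cannot separate animal number from diet there either.

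The reversed differences were as follows. With total-read scaling they were 0.0087 for miR-26b-5p, 0.047 for miR-n260, 0.072 for miR-16-5p, 0.065 for miR-n266, 0.088 for miR-142-5p, 0.10 for let-7c-5p, 0.12 for miR-27a-3p and 0.12 for miR-25-3p. With TMM factors they were 0.016 for miR-16-5p, 0.0088 for miR-n266, 0.034 for miR-142-5p, 0.048 for let-7c-5p, 0.061 for miR-27a-3p and 0.064 for miR-25-3p. With edgeR they were 0.0036 for miR-16-5p, 0.038 for miR-142-5p, 0.062 for let-7c-5p, 0.040 for miR-27a-3p and 0.048 for miR-25-3p. With limma-voom they were 0.070 for miR-132-3p, 0.040 for miR-n260, 0.051 for miR-16-5p, 0.038 for miR-n266, 0.031 for miR-142-5p, 0.013 for let-7c-5p, -0.050 for miR-351-5p, 0.11 for miR-27a-3p and 0.034 for miR-25-3p. With sample weights they were -0.021 for let-7f-5p, -0.11 for miR-351-5p and 0.045 for miR-27a-3p, and with DESeq2 -0.012 for miR-351-5p. With the identical column kept they were 0.040 for let-7c-5p and 0.024 for miR-27a-3p, without both S2Bb high-salt replicates 2 and 3 0.049 for let-7c-5p, and with thinned reads -0.16 for miR-212-5p. Leaving out 1 library gave ranges that cross zero for miR-203a-3p (-0.051 to 0.52), miR-21-3p (-0.035 to 0.53), miR-434-3p (-0.0048 to 0.29), miR-378a-3p (-0.11 to 0.24), miR-132-3p (-0.49 to 0.077), miR-181a-5p (-0.013 to 0.19), miR-n260 (-0.17 to 0.021), miR-16-5p (-0.13 to 0.045), miR-n266 (-0.15 to 0.055), miR-212-5p (-0.072 to 0.27), let-7f-5p (-0.031 to 0.090), miR-142-5p (-0.11 to 0.045), let-7c-5p (-0.077 to 0.031), miR-351-5p (-0.25 to 0.17), miR-27a-3p (-0.12 to 0.044) and miR-25-3p (-0.055 to 0.052).

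No paired analysis was possible because the labels give each library its own animal number and no number is shared between the groups. Depth limits the rare microRNAs, and the width of the intervals limits the rest.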

Other observations

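Among microRNAs below 10 nRPM on average, miR-223-3p of myeloid cells rose with salt in S2Bb by 0.60 ± 0.18 (SE) (adjusted p = 0.0334, limma), beside 0.18 ± 0.20 (SE) in S2Ba, where it was not called. It was chosen after its values were seen, and its difference of 0.42 ± 0.27 (SE) did not pass the test. More abundant white blood cell markers were not called in either strain. miR-142-5p gave 0.15 ± 0.13 (SE) in S2Bb and 0.19 ± 0.14 (SE) in S2Ba, a difference of -0.041 ± 0.19 (SE). miR-150-5p was lower on high salt in both, by -0.18 ± 0.18 (SE) in S2Bb and -0.44 ± 0.20 (SE) in S2Ba, a difference of 0.26 ± 0.27 (SE). The rare miR-29c-5p, passenger arm of a microRNA that represses collagens, gave responses of -0.45 ± 0.13 (SE) in S2Bb, where it was called, and -0.49 ± 0.14 (SE) in S2Ba, and was likewise chosen after its values were seen.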
